A study of Mus musculus with 6 samples.

Results

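The 52 genes described here encode the semaphorins, ephrins, Slits and netrins, which are the classical families of axon guidance cues, and their plexin, neuropilin, Eph, Robo and Unc5 receptors. They were taken from the array by symbol: a probe belonged to a gene when its RefSeq accession maps to that gene's symbol. This gave 70 probes for 52 of the 20676 named genes on the array, and 17 of the 52 genes had several probes. Secreted class 3 semaphorins bind neuropilins, which signal through plexins, while most membrane-bound semaphorins bind plexins directly. Ephrins and Eph receptors are both anchored in the membrane and signal between touching cells, and Slits and netrins are secreted proteins read by Robo and by Unc5 or Dcc receptors. Outside the nervous system the same families steer neural crest cells, vessels and nerves, and in the heart they take part in outflow tract septation, valve formation and the patterning of sympathetic nerves.

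Fibroblasts were cultured from the heart and from the skinned tail of male C57/Bl6-J mice, given as 8 weeks old in the sample labels and as 8 to 10 weeks in the protocol. Chopped heart and tail pieces were digested with trypsin or collagenase and the cells were plated for 5 days in serum-containing medium. Total RNA was labelled with Cy3 and hybridised to 1-colour Agilent arrays, 3 for heart and 3 for tail. The design text gives the 3 arrays of a tissue as biological replicates, each pooled from 2 animals. No animal was treated or carried an engineered allele according to the labels, and the sources used here do not say whether the same animals gave both tissues. The cells were defined by tissue, digestion and attachment to plastic, with no sort stated. Values below are log2 processed signals minus the array's 75th percentile over probes, so 0 marks a level above that of most probes. A probe's own brightness sets part of its value, so levels are compared between arrays and not between genes.

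Of the 6 arrays, 2 stood apart before any gene was compared. On heart 2, the scanner software called 99.3% of spots well above background, with a median processed signal of 949, against 47.3% to 55.2% of spots and medians of 24.3 to 37.8 on the other 5 arrays. Heart 2 correlated with the others at Pearson r of 0.743 to 0.764 over probes, and the other 5 arrays with each other at 0.957 to 0.989. Tail 1 correlated more closely with heart 1 (r = 0.989) and heart 3 (0.979) than with tail 2 (0.969) and tail 3 (0.957). Called genes are therefore given on all 6 arrays, and differences were fitted both by label (3 arrays each) and on 4 arrays, heart 1 and 3 against tail 2 and 3. Tail 1 was left out because of its expression values, so p-values on the 4 arrays are too small by an unknown amount, and every array kept its label. All 8 fibroblast markers looked for, among them Col1a1, Pdgfra and Vim, were well above background in both tissues on the 4 arrays.

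On the 4 arrays, 17 of the 49 guidance genes tested differed between heart and tail fibroblasts (limma, Benjamini-Hochberg adjusted p under 0.05 over all features). Lower in heart were 12, among them the secreted semaphorins Sema3a, Sema3e and Sema3b and the receptors Epha3 and Epha4. Higher in heart were 5, namely Sema5a, Sema7a, Unc5b, Epha7 and Plxna4. These 17 are 34.7% of the tested members, beside 14.4% called among all 20567 features tested, 7.75% higher and 6.63% lower. Sema3a, Sema3e and Robo2 were not well above background on both heart arrays and so entered through tail alone, and over genes measured on all 4 arrays 14 of 45 were called (31.1%, beside 11.6% of all features). All but Plxna4 differed at least 2-fold, and 11.8% of all features were called with such a difference. The median difference over the 49 genes was -0.24 on the log2 scale, beside -0.07 over all features, and the median absolute difference was 0.63 beside 0.32. Heart and tail values did not overlap on the 4 arrays for 38 of the 49 genes, where 62.5% of all features were apart in this way. Sema3g, Sema5b and Ephb1 were not tested, because no probe of theirs was well above background on both arrays of a tissue.

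By label, none of 47 tested guidance genes passed, as none of the 20197 features did (0%). Their smallest adjusted p was 0.714 with limma, and 4 of them, Plxna2, Sema3f, Epha4 and Efnb1, had an unadjusted p under 0.05, beside 2.2% of all features. Of the 15 genes called on 4 arrays that were also tested by label, 13 kept their direction, and Plxna4 (-0.04) and Unc5b (-0.28) did not. The median of all features by label was -0.40. Leaving out heart 2 alone also left no guidance gene called, with a smallest limma adjusted p of 0.697. Of 47 tested there, 2 had an unadjusted p under 0.05, beside 2.85% of all features. All 15 called genes tested there kept their direction. Both this fit and the one by label reuse the 4 arrays that selected these genes, so kept directions are no separate support. Tail 1 lay nearer the mean of heart 1 and 3 than that of tail 2 and 3 at all 17 called genes. That count was largely fixed in advance, because tail 1 was left out for its likeness to heart 1 and 3. Heart 2 lay nearer the heart arrays at 7 of the 17 genes, all lower in heart. It lay nearer the tail arrays at 10, among them all 5 higher in heart. Heart 2 also read some bright genes low and some dim ones high. Plxnb2, level on the 4 arrays, read 4.07 there against 6.33 to 6.43 on the others, and a Sema5b probe 0.93 against -7.18 to -5.93. Nearness of heart 2 therefore does not place it with a tissue, and was not counted over all features. In bulk cultures, fewer cells of a type and less RNA per cell cannot be told apart.

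**Figure D1:**
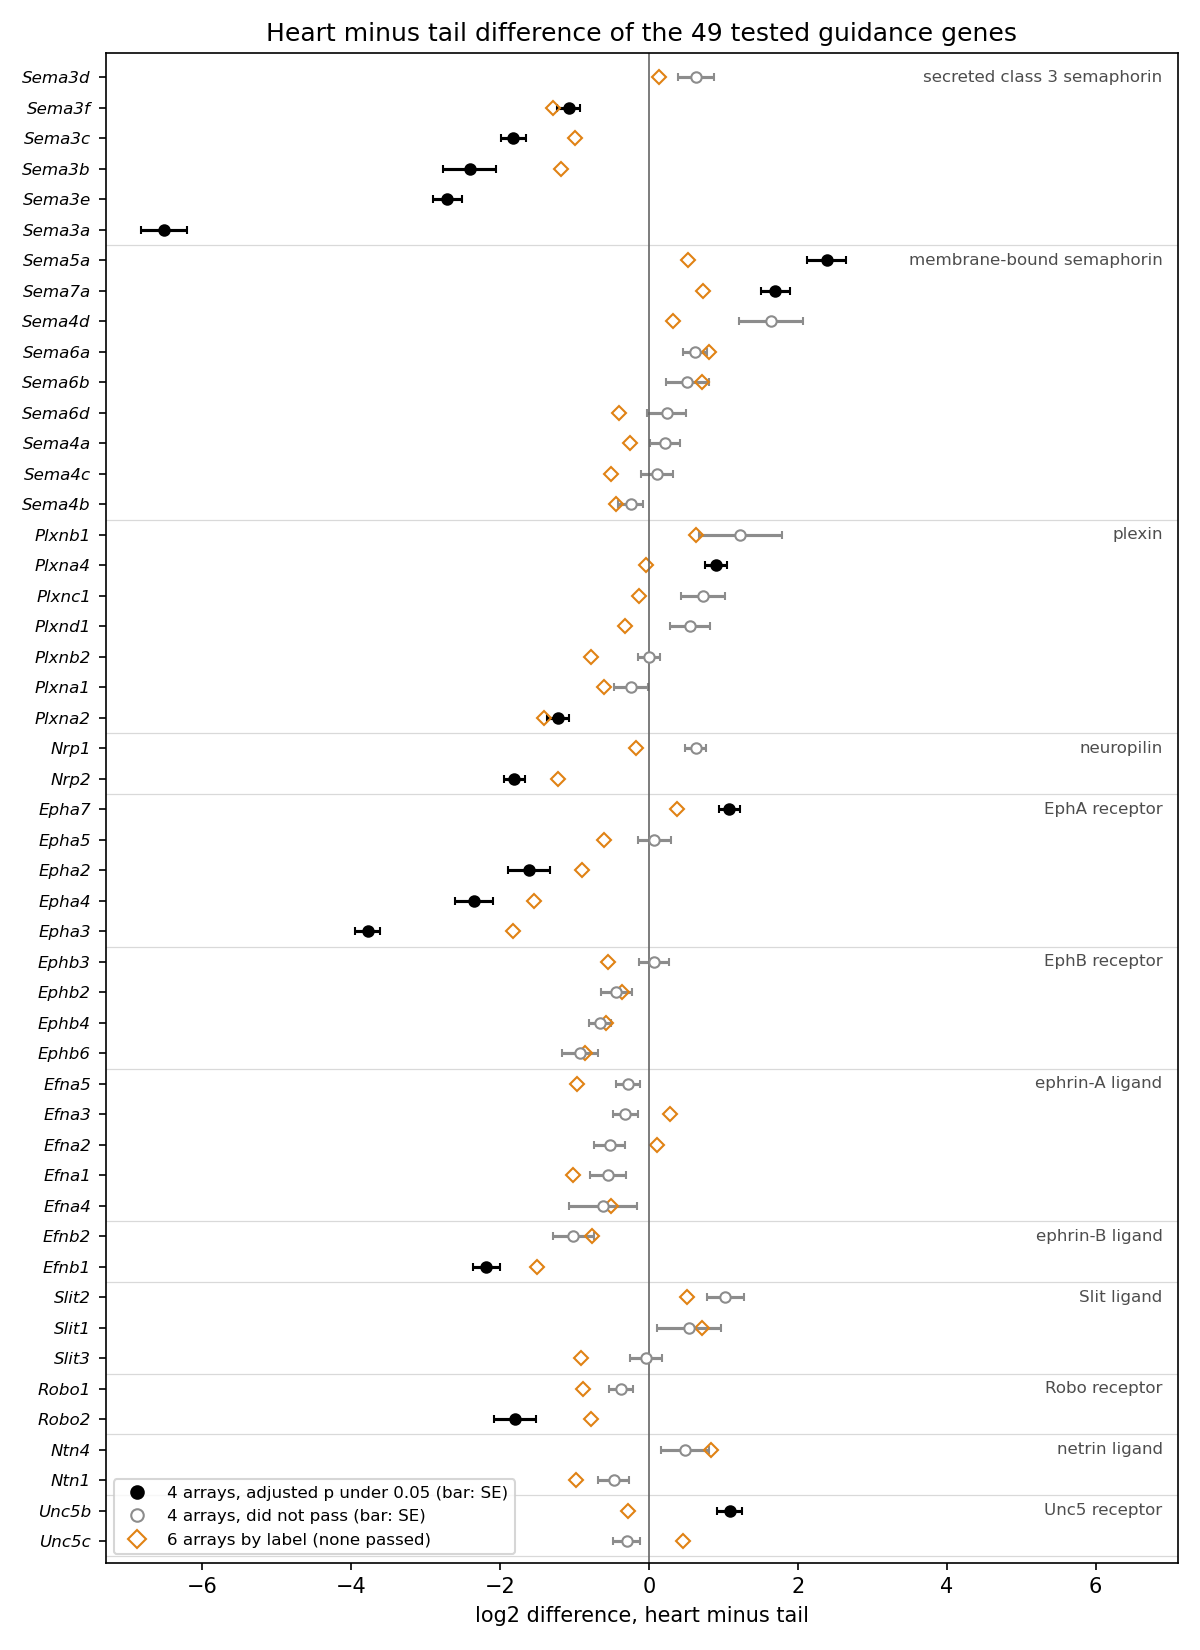
Heart minus tail difference (log2, x axis) of the 49 tested guidance genes, grouped by role from top to bottom, with filled circles for the 17 genes that passed on 4 arrays, open circles for those that did not (bars, SE of the 4-array fit) and diamonds for the 6 arrays by label, where none passed. Sema3a lies farthest to the left at -6.52 and Sema5a farthest to the right at 2.39, and 5 of the 6 class 3 semaphorins tested lie left of 0 and passed. Among these, Sema3a and Sema3e entered the test through tail alone, where they are high. Their points are drawn at measured values, which are not exact sizes.

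The promoters of the 2 called genes with the largest difference in each direction are printed because these genes lie at its ends. Sema3a and Epha3 were lower in heart, and Sema5a and Sema7a were higher. Each runs 5' to 3' on the gene's strand from 250 bases before to 50 after the RefSeq start site (build GRCm38.p6), and capitals mark matches to any of the motifs searched, TATAAA (the core promoter box), GGGCGG (a GC box), TAATTA (a homeodomain core), AGATAA (the core of the GATA factors) and CANNTG (the E-box), on either strand. Of the 52 genes, 45 had a promoter in the table used.
Sema3a, chr5:13396534-13396833, plus strand: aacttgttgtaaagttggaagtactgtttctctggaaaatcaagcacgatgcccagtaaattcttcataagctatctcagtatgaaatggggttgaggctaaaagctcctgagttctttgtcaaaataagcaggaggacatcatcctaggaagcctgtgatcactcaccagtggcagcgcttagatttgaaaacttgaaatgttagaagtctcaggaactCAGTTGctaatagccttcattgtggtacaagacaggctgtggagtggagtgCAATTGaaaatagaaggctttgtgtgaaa
Epha3, chr16:63864126-63864425, minus strand: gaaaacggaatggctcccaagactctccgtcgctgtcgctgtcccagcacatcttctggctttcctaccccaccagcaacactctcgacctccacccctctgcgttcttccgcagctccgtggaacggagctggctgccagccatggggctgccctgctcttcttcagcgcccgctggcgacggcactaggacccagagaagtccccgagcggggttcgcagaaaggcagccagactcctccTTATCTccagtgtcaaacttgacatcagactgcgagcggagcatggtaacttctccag
Sema5a, chr15:32244563-32244862, plus strand: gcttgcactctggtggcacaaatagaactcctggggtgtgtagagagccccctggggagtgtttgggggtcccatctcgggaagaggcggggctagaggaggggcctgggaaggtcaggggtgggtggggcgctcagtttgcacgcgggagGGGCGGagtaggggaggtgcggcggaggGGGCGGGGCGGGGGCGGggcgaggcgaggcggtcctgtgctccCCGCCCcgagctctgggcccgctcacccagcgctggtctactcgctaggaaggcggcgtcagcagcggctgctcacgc
Sema7a, chr9:57939862-57940161, plus strand: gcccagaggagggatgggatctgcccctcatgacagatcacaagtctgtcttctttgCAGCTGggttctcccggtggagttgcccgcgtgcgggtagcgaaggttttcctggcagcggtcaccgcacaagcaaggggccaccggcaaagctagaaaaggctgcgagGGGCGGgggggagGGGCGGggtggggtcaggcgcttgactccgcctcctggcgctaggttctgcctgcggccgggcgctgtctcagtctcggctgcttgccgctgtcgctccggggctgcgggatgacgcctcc
The Sema3a window held 2 CpG and 41.3% G and C, and both its matches are to CANNTG, the E-box letters that 72.3% of the 32851 RefSeq promoters of this length hold. The Epha3 window held 18 CpG and 60.7% G and C, with 1 match to AGATAA on the other strand, a motif found in 11.2% of promoters. In the Sema5a window there were 23 CpG, 71.3% G and C and 5 matches to GGGCGG, some of which overlap each other by a base, and 35.7% of all promoters hold at least 1. The Sema7a window also held 23 CpG, with 67.3% G and C, 2 matches to GGGCGG and 1 to CANNTG. The median promoter had 7 CpG and 52.7% G and C. TATAAA (13.6% of promoters) and TAATTA (5.29%) were in none of these windows, and a match describes letters, not a bound site.

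Secreted class 3 semaphorins fell in heart fibroblasts at 5 of the 6 members tested on 4 arrays, and none rose. Of all features, 6.63% were called lower and 7.75% higher. Sema3a and Sema3e entered the test only through tail, where they are high, and without them 3 of 4 fell. Sema3a, the founding repellent of the class, which acts through Nrp1 and A-type plexins and patterns cardiac sympathetic nerves, read -6.68, 1.47 and -5.87 in heart cultures 1, 2 and 3, against -5.76, 0.13 and 0.36 in tail cultures 1, 2 and 3. Heart 1, heart 3 and tail 1 were low together, and heart 2 was the highest of all 6, so the labelled groups overlapped. Its probe was not well above background on either heart array of the 4, which makes heart at least 26.6-fold lower than tail (fitted difference -6.52, SE 0.31, limma adjusted p = 0.00131). Such a bound sets the brighter tissue's mean against the lowest signal among probes called well above background on each dimmer array, or the probe's own signal where that is higher. A dimmer Sema3a probe differed by -3.03 (at least 2.53-fold), and a background correction that compresses dim signals (normexp) gave -2.79 for the gene. Sema3e, a ligand that binds plexin D1 without a neuropilin and limits vessel growth, read -5.70, -1.90 and -6.10 on the heart arrays, against -5.25, -3.25 and -3.13 on the tail arrays. Heart 2 was again above tail 2 and 3. Over 4 arrays the Sema3e probe, also not well above background in heart, was at least 2.45-fold lower (-2.71, SE 0.20, adjusted p = 0.00279), and normexp gave -0.92. Neither Sema3a nor Sema3e could be tested by label, because heart and tail each held an array where the probe was dim.

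Sema3b, a repellent first studied as a tumour suppressor, read -0.50, 1.63 and 0.45 in heart cultures 1, 2 and 3, against 0.34, 2.51 and 2.25 in tail cultures 1, 2 and 3. Its 3 heart arrays all lay below tail 2 and 3, and tail 1 lay among them. Sema3b was 5.31-fold lower in heart on 4 arrays (-2.41, SE 0.36, limma adjusted p = 0.0182) and -1.18 by label, and the call was lost without tail 2 (adjusted p = 0.0673). Sema3c, which guides cardiac neural crest cells into the outflow tract, read -0.67, 0.11 and -0.39 on the heart arrays, against -0.58, 1.29 and 1.30 on the tail arrays. The 3 heart arrays and tail 1 all lay below tail 2 and 3. On 4 arrays Sema3c was 3.54-fold lower in heart (-1.82, SE 0.17, adjusted p = 0.00519), its other probe differed by -1.50, and the difference by label was -0.99. Sema3f, the main ligand of Nrp2, read 2.06, 0.66 and 2.08 on the heart arrays, against 2.37, 3.05 and 3.24 on the tail arrays. Here the labelled groups did not overlap, since even tail 1 lay above every heart array. Heart 2 read other genes low as well, such as Plxnb2, so its value here does not place it with either tissue. The share of all features apart in this way on 6 arrays was not counted. Sema3f was 2.11-fold lower in heart (-1.08, SE 0.15, adjusted p = 0.0162; -1.29 by label), a call lost without tail 2 (0.117) and without tail 3 (0.188). Sema3d, which guides pulmonary vein endothelium, differed by 0.63 (adjusted p = 0.185) and is the tested member of the class that did not pass. Sema3g, bound by Nrp2, was not tested.

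Membrane-bound semaphorins gave 2 genes higher in heart and none lower among the 9 tested on 4 arrays. Of all features, 7.75% were called higher and 6.63% lower, and counts this small do not describe a class. Sema5a, a transmembrane protein with thrombospondin repeats that can attract or repel, read 1.39, -1.78 and 1.1 in heart cultures 1, 2 and 3, against 1.43, -0.85 and -1.43 in tail cultures 1, 2 and 3. Heart 1, heart 3 and tail 1 stood together at the top, and heart 2 was the lowest of the 6. Sema5a was 5.23-fold higher in heart on 4 arrays (2.39, SE 0.26, limma adjusted p = 0.00787), and the difference by label was 0.52 (SE 1.02). Sema7a, a lipid-anchored semaphorin that signals through integrins and plexin C1, read 0.65, -1.08 and 0.46 on the heart arrays, against 0.13, -0.95 and -1.32 on the tail arrays. Heart 2 lay between tail 2 and tail 3, and tail 1 between them and the other heart arrays. Sema7a was 3.24-fold higher in heart (1.70, SE 0.20, adjusted p = 0.00928; 0.73 by label), and its call was lost without tail 3 (0.0618). Sema4d, the plexin B1 ligand that leukocytes carry, read -1.24, -3.23 and -0.49 on the heart arrays, against -0.92, -2.01 and -2.99 on the tail arrays. Heart 1 and 3 lay above tail 2 and 3, and heart 2 was the lowest of all. Its difference of 1.64 on 4 arrays did not pass (SE 0.43, adjusted p = 0.0821), but did with the slide row blocked (0.0454). The other 6, Sema4a, Sema4b, Sema4c, Sema6a, Sema6b and Sema6d, differed by -0.24 to 0.62 and did not pass. Sema5b was not well above background on the 4 arrays with either of its probes.

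The receptors of the semaphorins split by member. Nrp2, the co-receptor preferred by Sema3f and Sema3c, read 3.77, 3.61 and 3.75 in heart cultures 1, 2 and 3, against 3.67, 5.54 and 5.59 in tail cultures 1, 2 and 3. The 3 heart arrays and tail 1 lay close together, below tail 2 and 3. As heart 2 read other bright genes low as well, its value here does not place it with either tissue. Nrp2 was 3.50-fold lower in heart on 4 arrays (-1.81, SE 0.14, limma adjusted p = 0.00334; -1.22 by label), and its dimmer probe differed by -2.62. Nrp1, the Sema3a co-receptor that also binds VEGF, differed by 0.63 and just missed the threshold (adjusted p = 0.057), passing with an intensity trend and robust estimation (0.0466). Its sign turned by label (-0.17). Whether Nrp1 and Nrp2 differ in their response was not tested.

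Among the 7 plexins, 1 fell and 1 rose in heart, beside 6.63% and 7.75% of all features, and counts this small do not describe a class. Plxna2, a class 3 semaphorin receptor that marks cardiac neural crest, read 1.50, -0.08 and 1.49 in heart cultures 1, 2 and 3, against 1.71, 2.76 and 2.68 in tail cultures 1, 2 and 3. All 3 heart arrays lay below all 3 tail arrays, though tail 1 lay closer to heart 1 and 3 than to tail 2 and 3. Heart 2 read other genes low as well, such as Plxnb2, so its value here does not place it with either tissue. How many of all features were apart in this way on 6 arrays was not counted. Plxna2 was 2.33-fold lower in heart on 4 arrays (-1.22, SE 0.14, limma adjusted p = 0.00939; -1.41 by label), with the call lost without tail 2 (0.113) and without tail 3 (0.0977). Plxna4, the plexin through which Sema3a acts on sympathetic neurons, read 0.01, -1.44 and 0.13 on the heart arrays, against 0.48, -0.77 and -0.88 on the tail arrays. Heart 2 was the lowest and tail 1 the highest value, so the order ran against the labels on both. Plxna4 was 1.87-fold higher in heart (0.90, SE 0.15, adjusted p = 0.0253) and -0.04 by label. It lost its call without heart 3 (0.0558), tail 2 (0.195) or tail 3 (0.269) and with the slide row blocked (0.0563), and its other probe, not well above background, differed by -0.40. Plxnb1, the Sema4d receptor, differed by 1.23 (adjusted p = 0.234) and passed without tail 2 (2.03, 0.0273). Plxnd1, the Sema3e receptor of vessels, differed by 0.55 (adjusted p = 0.264) and passed without heart 1 (0.90, 0.0366). Plxna1, Plxnb2 and Plxnc1 differed by -0.24 to 0.72 and did not pass.

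**Figure D2:**
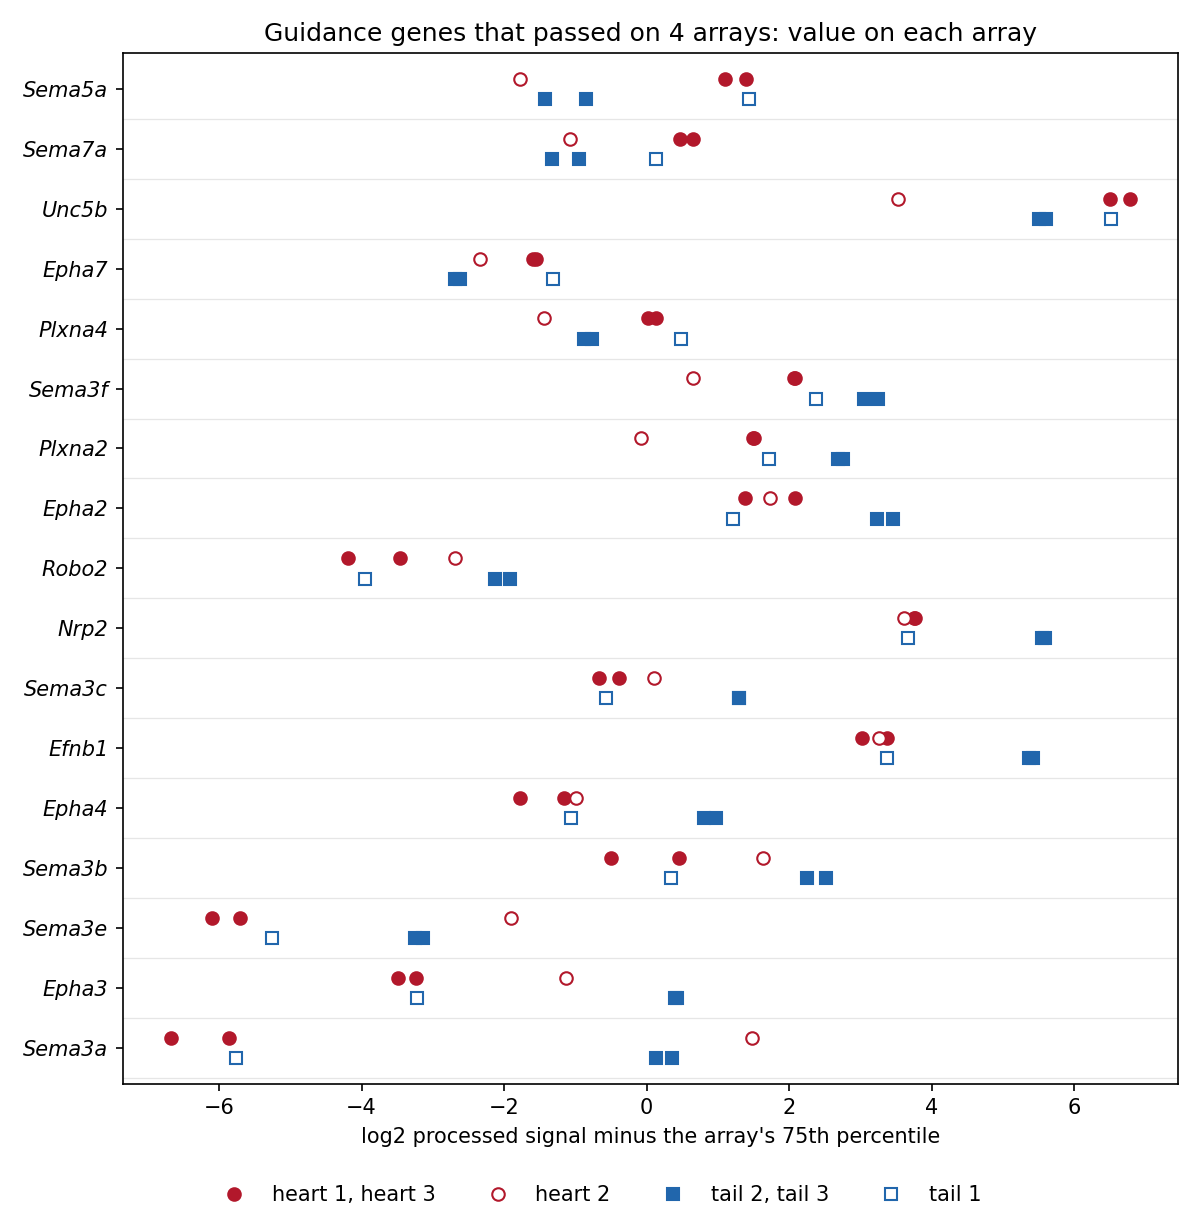
Value on each array (log2 processed signal minus the array's 75th percentile, x axis) of the 17 guidance genes that passed on 4 arrays, ordered from the highest difference at the top to the lowest at the bottom, with heart 1 and 3 as filled circles, heart 2 as an open circle, tail 2 and 3 as filled squares and tail 1 as an open square. Tail 1 lies nearer the filled circles for all 17 genes, and heart 2 lies nearer the filled squares for 10 of them. Tail 1 was left out of the fit for its likeness to heart 1 and 3, so its place was largely fixed in advance.

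Of the 5 EphA receptors, 3 were lower in heart and 1 was higher on 4 arrays, beside 6.63% and 7.75% of all features. Epha3, a receptor for A-type ephrins needed in mice for the endocardial cushions, read -3.24, -1.13 and -3.49 in heart cultures 1, 2 and 3, against -3.22, 0.40 and 0.43 in tail cultures 1, 2 and 3. Heart 1, heart 3 and tail 1 were low together, and heart 2 lay between them and tail 2 and 3. Epha3 was 13.7-fold lower in heart (-3.78, SE 0.16, limma adjusted p = 0.0011; -1.82 by label), and with Sema3a and Sema3e it passed in every alternative on 4 arrays in which it was tested. Epha4, which binds both A-type and B-type ephrins, read -1.78, -0.99 and -1.16 on the heart arrays, against -1.06, 0.97 and 0.80 on the tail arrays. Every heart array was below tail 2 and 3, and tail 1 was among the heart arrays. Epha4 was 5.11-fold lower in heart (-2.35, SE 0.26, adjusted p = 0.00799), and -1.55 by label (unadjusted p = 0.0368). Epha2, the receptor of ephrin-A1 in epithelium and vessels, read 2.08, 1.73 and 1.38 on the heart arrays, against 1.21, 3.23 and 3.46 on the tail arrays. Tail 1 was the lowest of the 6, and the heart arrays all lay below tail 2 and 3. Epha2 was 3.05-fold lower in heart (-1.61, SE 0.28, adjusted p = 0.0292; -0.90 by label), a call lost without tail 2 (0.0934) and without tail 3 (0.125).

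Epha7, a receptor with a truncated splice form that can turn repulsion into adhesion, was the EphA gene higher in heart. It read -1.55, -2.34 and -1.60 in heart cultures 1, 2 and 3, against -1.31, -2.62 and -2.68 in tail cultures 1, 2 and 3. Tail 1 was the highest value, and all 3 heart arrays lay above tail 2 and 3. Epha7 was 2.12-fold higher in heart on 4 arrays (1.08, SE 0.14, limma adjusted p = 0.0132; 0.38 by label), and the call was lost without tail 2 (0.133). The size depended on the probe. Another Epha7 probe, not well above background in tail, read -0.42 on heart 1 and -0.13 on heart 3, against -4.25 on tail 2 and -5.79 on tail 3, which is at least 13.4-fold higher in heart. The remaining probe, also not well above background in tail, was at least 1.24-fold higher. After normexp (2.41) and without tail 3 (3.97) the at least 13.4-fold probe became the brightest and stood for the gene. The mean of probes (2.91) includes that probe but not the remaining one, which did not pass the filter. These 3 values thus rest at least in part on tail signals not well above background. Epha5 differed by 0.07 on its bright probe (adjusted p = 0.859), while its other probe was not well above background on any of the 4 arrays.

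EphB receptors, which bind B-type ephrins, gave no called gene among the 4 tested, beside 14.4% called of all features. Ephb4, the venous receptor of ephrin-B2, differed by -0.66 (limma adjusted p = 0.0567) and passed after normexp (0.0449) and with an intensity trend and robust estimation (0.0339). Ephb6, which lacks kinase activity, differed by -0.93 (adjusted p = 0.0849) and passed without heart 3 (-1.22, 0.039). Ephb2 and Ephb3 differed by -0.44 and 0.06, and Ephb2 had no value on heart 2, where its spot was an outlier. Ephb1 was not tested.

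Of the ephrins themselves, 1 of the 2 tested B-type ligands fell and no A-type ligand passed, beside 14.4% called of all features. Efnb1, a transmembrane ligand that forms tissue boundaries in the neural crest skeleton, read 3.02, 3.25 and 3.38 in heart cultures 1, 2 and 3, against 3.37, 5.41 and 5.36 in tail cultures 1, 2 and 3. The 3 heart arrays and tail 1 read low together. Heart 2 also read low at bright genes that hardly differed, such as Plxnb2, so its value here does not place it with either tissue. Efnb1 was 4.55-fold lower in heart on 4 arrays (-2.19, SE 0.18, limma adjusted p = 0.00405), and -1.50 by label (unadjusted p = 0.0398). Efnb2, the arterial ligand of Ephb4, read 1.1, 0.40 and 0.39 on the heart arrays, against 0.68, 1.71 and 1.81 on the tail arrays. The heart arrays lay below tail 2 and 3, and tail 1 lay among them. Its difference of -1.02 did not pass (SE 0.28, adjusted p = 0.0893), but did without heart 1 (-1.37, 0.0184). All 5 ephrin-A genes, which encode lipid-anchored ligands of EphA receptors, had negative differences, -0.62 to -0.28, with adjusted p of 0.183 to 0.425. Efna4 passed without heart 3 (-1.25, 0.0461) and read 0.0185 without heart 1, and Efna2 (0.11) and Efna3 (0.28) turned sign by label.

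Slit ligands did not pass, and 1 of the 2 Robo receptors fell in heart, where 6.63% of all features were called lower. Robo2, a Slit receptor, read -4.19, -2.70 and -3.46 in heart cultures 1, 2 and 3, against -3.96, -1.92 and -2.13 in tail cultures 1, 2 and 3. The heart arrays and tail 1 all lay below tail 2 and 3, with heart 2 closest to them. Robo2 was 3.48-fold lower in heart on 4 arrays (-1.80, SE 0.29, limma adjusted p = 0.0225; -0.78 by label), with 1 of its 2 heart arrays well above background. The call was lost without tail 2 (0.102) and without tail 3 (0.0648), normexp gave -0.85, and a dimmer probe, not well above background in heart, was at least 1.48-fold lower. Robo1, the receptor of the same ligands in developing heart and vessels, differed by -0.38 (adjusted p = 0.212). Slit2, a secreted repellent, read 2.83, 1.96 and 2.36 on the heart arrays, against 2.46, 1.77 and 1.37 on the tail arrays, so heart 2 was above tail 2 and 3 as the other heart arrays were. Its difference of 1.02 missed the threshold (SE 0.25, adjusted p = 0.0686) and passed after normexp (0.0477), with the slide row blocked (0.0334) and with an intensity trend and robust estimation (0.0416). Slit1 differed by 0.54 (adjusted p = 0.457) and passed without heart 1 (1.14, 0.043), and Slit3 differed by -0.04 (0.918).

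Netrins did not pass either, and 1 of the 2 Unc5 receptors rose, where 7.75% of all features were called higher. Unc5b, the netrin receptor of endothelial tip cells, read 6.77, 3.52 and 6.50 in heart cultures 1, 2 and 3, against 6.52, 5.61 and 5.50 in tail cultures 1, 2 and 3. Heart 2 was the lowest, and tail 1 stood with heart 1 and heart 3. Unc5b was 2.12-fold higher in heart on 4 arrays (1.08, SE 0.17, limma adjusted p = 0.022) and -0.28 by label (SE 0.86), and the call was lost without tail 2 (0.145) and without tail 3 (0.19). Unc5c, a repulsive netrin receptor, differed by -0.30 (adjusted p = 0.344). Ntn1, the long-range cue read by Dcc and Unc5 receptors, differed by -0.48 (adjusted p = 0.217), and Ntn4, a basement membrane netrin, by 0.49 (0.377).

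The 6 arrays lay on 1 slide, with heart 1, heart 2, tail 1 and tail 2 in its first row and heart 3 and tail 3 in its second. Each row thus gave 1 difference free of the arrays that stood apart, heart 1 minus tail 2 and heart 3 minus tail 3. All 17 called genes had the same sign in both, as did all 2957 called features, a property that a small p on these 4 arrays selects for. Their 2 values differed by a median of 0.27, beside 0.36 over called features and 0.37 over all features, and by at most 1.22, reached by Sema3b (-3.02 and -1.80). Sema3a gave -6.81 and -6.22, Epha3 -3.64 and -3.92, Sema5a 2.24 and 2.53, and Sema7a 1.61 and 1.79. The uncalled Sema4d (0.78 and 2.50) and Plxnb1 (0.35 and 2.11) differed more between rows. With 1 array per tissue in a row, these values carry no test.

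**Figure D3:**
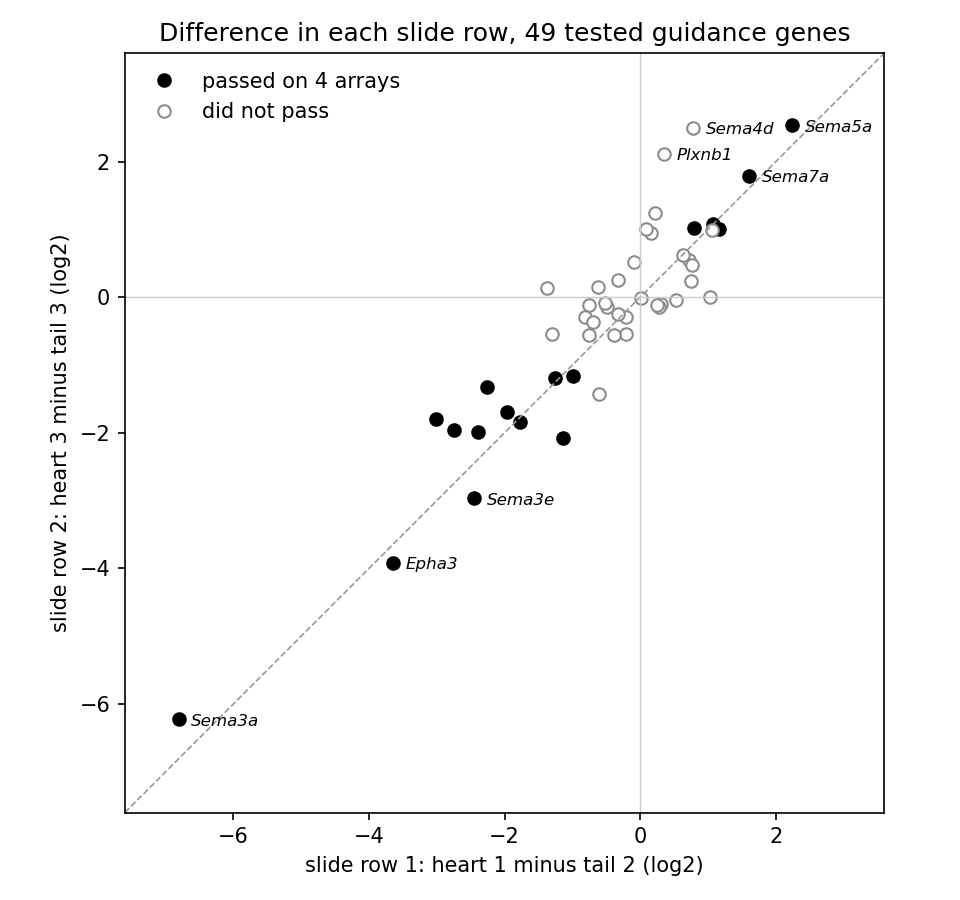
Difference in the first slide row (heart 1 minus tail 2, log2, x axis) against that in the second (heart 3 minus tail 3, log2, y axis) for the 49 tested guidance genes, filled where the gene passed on 4 arrays, with equality as a dashed line. All 17 filled points lie in the lower left or upper right corner region, with Sema3a at -6.81 and -6.22, while Sema4d and Plxnb1 lie above the line.

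Where a gene had several probes, their differences mostly had the same sign. The exceptions among tested genes were Plxna4 (0.90 and -0.40) and Epha5 (0.07 and -0.98), in each of which the probe with the negative value was not well above background on any of the 4 arrays. For Epha7 the probe measured in both tissues differed by 1.08, beside bounds of at least 13.4-fold and 1.24-fold for the others, and both Sema3a probes give only bounds, at least 26.6-fold and 2.53-fold lower in heart. Both probes gave close values for Plxnd1 (0.55 and 0.52) and Ntn1 (-0.48 and -0.46). No probe of a guidance gene was saturated on any array.

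**Figure D4:**
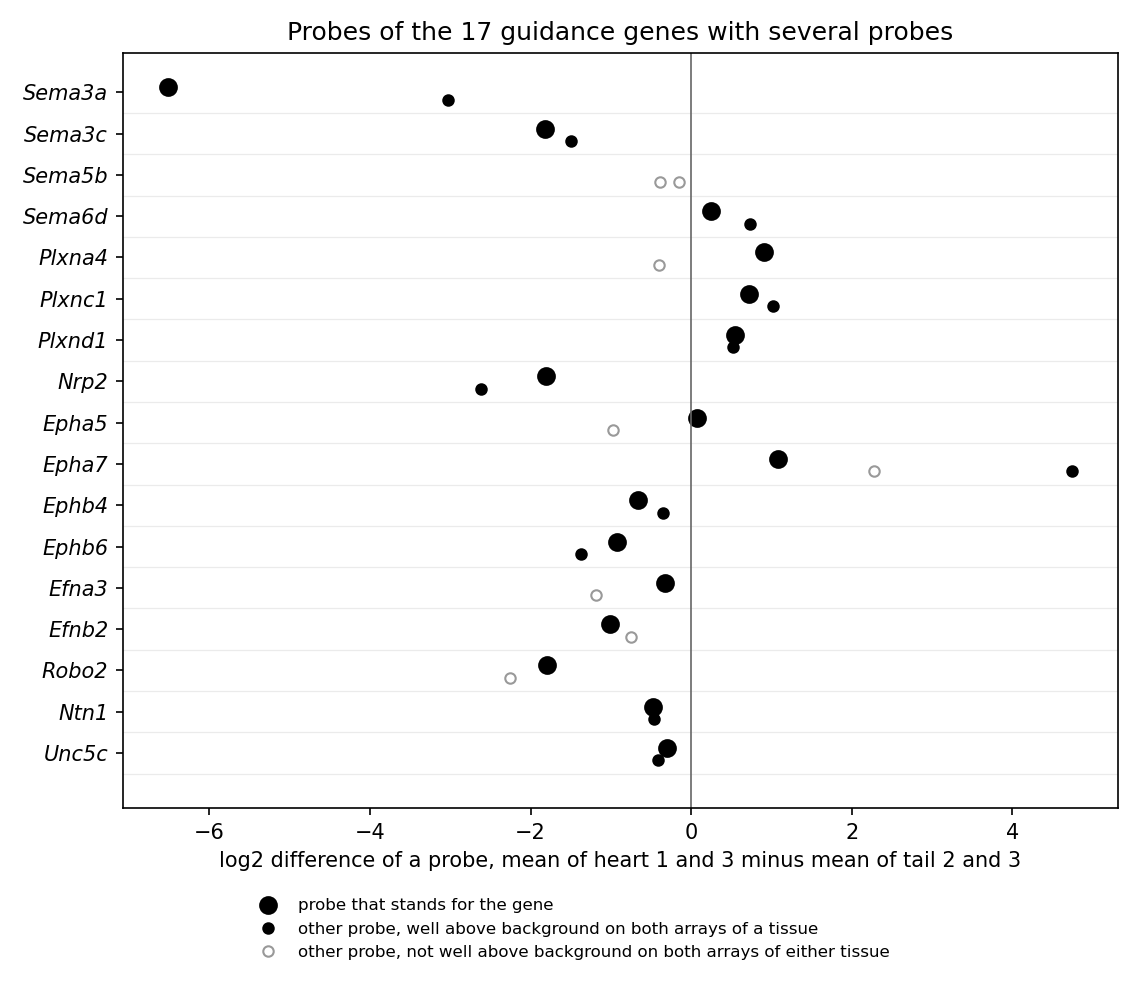
Difference of each probe (mean of heart 1 and 3 minus mean of tail 2 and 3, log2, x axis) for the 17 guidance genes with several probes, with a large circle for the probe that stands for the gene, small filled circles for other probes well above background on both arrays of a tissue and small open circles for probes that were not. The 3 Epha7 probes lie right of 0 and both Sema3a probes left of it, where points of probes dim in 1 tissue are drawn at their measured values, which are not exact sizes.

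The authors' deposited table of 433 probes with at least 2.00-fold differences lists 3 of the 52 genes, with log2 values of heart over tail. It gives Efnb1 at -1.98, Nrp2 at -1.77 and Unc5b at 1.14. On the 4 arrays the same genes differed by -2.19, -1.81 and 1.08, and how the authors filtered, and with which arrays, is not stated in the labels or the file.

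Other genes of the same families were looked at through a list of 36, of which 18 were tested on 4 arrays. Of these 18, 4 were higher and 6 lower in heart, with a median difference of -0.45, and none of the 16 tested by label passed. Robo4, the endothelial Robo, was at least 16.2-fold higher in heart with a limma adjusted p of 0.0051, while Unc5a (log2 difference 1.68), Rgmb (1.15), a co-receptor of bone morphogenetic proteins that binds neogenin, and the netrin receptor Dcc (0.98) were also higher. Draxin, a secreted ligand of Dcc, was at least 3.48-fold lower and Slitrk6 at least 2.45-fold lower, and Flrt3 (-3.20) and Epha1 (-2.16) were also lower. Flrt3 is a membrane protein that binds Unc5 receptors. Robo4 entered the test through heart alone, and Draxin and Slitrk6 through tail alone, the tissues where they are high. Of 59 genes for intracellular effectors, proteases and proteoglycans of guidance signalling, all tested, 5 were higher and 8 lower in heart, with a median of 0.14. Beside these counts and those of the markers below, 14.4% of all features were called on 4 arrays, 7.75% higher and 6.63% lower. The median over all features was -0.07.

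Markers of other cell types also moved between the 4 arrays, and their part in the differences of the guidance genes was not tested. Of 12 endothelial markers, 9 were called higher in heart and none lower. Among these 9, Tie1, Cldn5, Emcn and Robo4 were not above background in tail and entered the test through heart alone, where they are high. The summed level of the 12, in units of the array's 75th percentile, spanned 30.3 to 37.1 in heart and 29.1 to 37.4 in tail. Kdr and Egfl7, neither called, made up 78.7% to 78.8% of this sum in heart and 94.1% to 94.9% in tail. Unc5b, Nrp1, Plxnd1 and Robo4, all with positive differences, are themselves known in endothelium, though Nrp1 and Plxnd1 did not pass. Other guidance genes known in vessels had negative differences, namely Epha2 (-1.61, called) and the uncalled Efnb2 (-1.02), Ephb4 (-0.66) and Robo1 (-0.38). Of 9 macrophage and leukocyte markers tested, 7 were called higher and none lower (sums 65.7 to 112 in heart and 30.1 to 47.0 in tail). Csf1r, not called, made up 35.2% to 38.5% of this sum in heart and 73.1% to 74.5% in tail. Sema4d, Sema7a and Plxnc1 are known in leukocytes, and of these only Sema7a was called. Smooth muscle and pericyte markers had 5 of 8 lower (sums 586 to 635 in heart and 1252 to 1529 in tail). Acta2 and Tagln, the latter not called, made up 98.9% to 99.0% of this sum in heart and 83.7% to 85.2% in tail. All 4 tendon markers were lower (0.399 to 0.547 in heart and 438 to 475 in tail). Of these, Tnmd and Mkx were not above background in heart and entered the test through tail alone, where they are high. Mesothelium and epicardium markers had 3 of 6 tested higher and 1 lower (39.7 to 42.4 in heart and 2.94 to 3.06 in tail), with Tcf21 making up at least 97.7% of the sum in heart and Krt19 at least 94.2% in tail. The genes called higher, Msln, Wt1 and Tcf21, were not above background in tail and entered the test through heart alone. Schwann and glial markers had 1 higher and 1 lower of 4 tested (6.15 to 6.49 in heart and 8.09 to 8.73 in tail), with Erbb3 and Foxd3 not above background on any of the 4 arrays. Ncam1, not called, made up 86.6% to 87.1% of this sum in heart and 64.5% to 69.3% in tail. The gene called higher, Cdh19, was not above background in tail and entered the test through heart alone. Cardiomyocyte markers summed to 0.237 to 0.347 in heart and 0.297 to 0.377 in tail, with Myl7 and Actn2 not above background, and neither tested keratinocyte marker passed. In tail, Thbs4 made up 97.8% of the tendon sum. On heart 2 the tendon sum was 69.3 and the cardiomyocyte sum 4.87, and on tail 1 they were 0.509 and 0.295. As heart 2 read some bright genes low and some dim ones high, its sums do not show which cells it held.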

How the data were processed

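The deposited files give, per the file headers, spot intensities from Agilent Feature Extraction 11.0.1.1 (the version also named in the submitters' processing notes), background-subtracted but not scaled between arrays. Per the file headers, other columns hold flags of 0 or 1 that mark spots as above background, saturated or outlying. A table the authors deposited holds a log2 fold change and its linear ratio, used here as a description.

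Outlier spots were dropped and replicate spots averaged, and log2 signals were centred on each array's 75th percentile of all non-control probes. Probes were named by RefSeq accession. Those above background in every array of either tissue were tested, each gene by its brightest probe. The test was limma 3.58.1 in R 4.3.3 (lmFit, eBayes, two-sided, with Benjamini-Hochberg adjustment over all features) and was tried on simulated data. Tables were read in Python 3.11.15 (pandas 2.3.3) and plotted with matplotlib 3.10.9. Where the dimmer tissue had no array above background, the fold is a lower bound.

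Values on each array are given for the called genes and a few near the threshold, which were picked after their values were seen. From the list of other family genes, up to 4 called genes with the largest difference in each direction are named, and single effector genes are not reported here. The members and all lists were chosen with earlier results of these data known. Alternatives were quantile normalization, normexp (offset 50, on median spot signals), a filter of none or of every array, the mean of probes, the slide row or the replicate number as a block, trend and robust estimation, and leaving out each array. The number of arrays limits the precision.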

Additional observations from a re-analysis of the deposited data

How the results depend on the processing

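With 2 arrays per tissue, the 4-array counts of guidance genes moved most without a filter on dim probes, where 37066 features were tested and 0 were higher and 3 lower (Sema3a, Epha3 and Sema3e), against 5 and 12 with the filter. That setting ended the call of 14 of the 17 genes. Leaving out 1 array gave 2 to 7 higher and 7 to 14 lower. The share of all features called moved too, to 1.93% without a filter (members 5.77%) and to between 7.15% without tail 3 (members 20%) and 18.6% without heart 1 (members 40.8%). The slide row as a block gave 6 and 12, and the other settings 5 to 7 higher and 9 to 13 lower. By label, no guidance gene passed with limma in any setting, while 44 of 20197 features (0.218%) did with the replicate block and 214 of 20858 (1.03%) without heart 1. Whether replicate numbers pair the cultures could not be decided. Deviations of same-numbered arrays from their label means correlated at 0.195, 0.259 and -0.33, and 2 of the 6 arrays correlated best with their own number. Those label means include heart 2 and tail 1, the arrays that stood apart, so the correlations cannot exclude pairing. With the replicate number as a block 0 guidance genes passed. No paired analysis was possible because the 4 arrays share only number 3. Directions on the 4 arrays turned by label for Plxna4 (-0.0383), Unc5b (-0.28), Sema4a (-0.25), Sema4c (-0.51), Sema6d (-0.40), Plxnb2 (-0.79), Plxnc1 (-0.14), Plxnd1 (-0.33), Nrp1 (-0.17), Epha5 (-0.61), Ephb3 (-0.55), Efna2 (0.11), Efna3 (0.28) and Unc5c (0.45). They also turned when 1 array was left out, with values of -0.13 without heart 1 to 0.35 without heart 3 for Sema4c, -0.0904 to 0.57 for Sema6d, -0.19 to 0.33 for Epha5, -0.15 without heart 1 for Ephb3, 0.0185 without heart 1 to -1.25 without heart 3 for Efna4, -0.0525 without heart 3 to 1.14 without heart 1 for Slit1, -0.27 without heart 3 to 0.19 without heart 1 and 0.02 without tail 2 for Slit3, and -0.0277 without tail 2 to 0.0282 without tail 3 for Plxnb2. Of these only Plxna4 and Unc5b were called on the 4 arrays. The cause was not tested. Dim probes, among them Sema3a and Sema3e in heart, give only bounds.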
